A study of Mus musculus with 10 samples.

Results

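The 10 mature miRNAs described here are the 5p and 3p arms of miR-431, miR-433, miR-127, miR-434 and miR-136, whose genes lie on the strand opposite to the imprinted gene Rtl1 on mouse chromosome 12. They were taken by name and position from a table of 1061 mature miRNAs, and 10 of 10 were above the minimum level for testing. The table held 10 small RNA libraries from 5 mice of strain C57BL/6J and wild-type genotype, numbered 61, 64, 65, 66 and 68, with 1 left and 1 right library for each mouse. All mice were treated alike: at postnatal day 24, under ketamine and xylazine, a goggle with a -20 D lens was fixed over 1 eye, the other eye was left bare, and tissue labelled as postnatal day 34 was taken after 10 days of lens wear. Such a lens is used to make the eye grow myopic. The labels name the side of each retina but not the side that wore the lens, so right was set against left within each mouse, and a lens effect that lay on different sides in different mice would cancel.

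miRNAs are short RNAs cut from both arms of a hairpin precursor, and an arm loaded into an Argonaute protein represses mRNAs that match its seed, here bases 2 to 8 from the 5′ end. The hairpins around miR-127 belong to the Dlk1-Dio3 domain, in which the noncoding RNAs are transcribed from the maternal chromosome and the protein-coding genes Dlk1, Rtl1 and Dio3 from the paternal one. Rtl1, a gene derived from a retrotransposon and needed in the placenta, runs through the same DNA in the other direction, so these miRNAs are fully complementary to its mRNA and are known to direct its cleavage. Many miRNAs of the domain are abundant in brain and other neural tissue.

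The mature sequences from RefSeq (GRCm38.p6), which matched 10 of 10 names, are shown because the seed decides what each arm can bind. They run 5′ to 3′, with the prefix mmu for mouse and the seed in capitals, in the order of the hairpins along the chromosome:
mmu-miR-431-5p: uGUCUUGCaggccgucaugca
mmu-miR-431-3p: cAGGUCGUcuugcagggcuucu
mmu-miR-433-5p: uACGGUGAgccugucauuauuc
mmu-miR-433-3p: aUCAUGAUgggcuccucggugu
mmu-miR-127-5p: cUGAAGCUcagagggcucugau
mmu-miR-127-3p: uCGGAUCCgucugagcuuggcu
mmu-miR-434-5p: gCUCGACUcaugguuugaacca
mmu-miR-434-3p: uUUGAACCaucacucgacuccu
mmu-miR-136-5p: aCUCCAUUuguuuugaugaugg
mmu-miR-136-3p: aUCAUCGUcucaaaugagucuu

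The 10 seeds were all different, and none was shared with another of the 909 table miRNAs that had a RefSeq sequence. No other mature miRNA of the RefSeq table had the same full sequence as a member, so reads of full length can be told apart. The longest run shared by any pair of members was the 10 bases GUCUUGCAGG of both miR-431 arms, which hold the seed of miR-431-5p. In miR-434 each arm carried the other's seed further along: UUGAACC stood at position 15 of miR-434-5p and CUCGACU at position 13 of miR-434-3p, counted from the 5′ end. The GC content ran from 36.4% in both miR-136 arms to 59.1% in miR-127-3p and miR-431-3p.

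In GRCm38 the 5 hairpins lay on the plus strand within 4942 bases, chr12:109590447-109595388, and inside Rtl1 on the minus strand, chr12:109589193-109600330. In the GENCODE annotation of that build, 10 of 10 mature miRNAs fell in the coding exon of Rtl1 and in none of its untranslated regions. Mir431 (chr12:109590447-109590537) was followed by Mir433 (chr12:109591715-109591838) and Mir127 (chr12:109592846-109592915), and then by Mir434 (chr12:109594506-109594599) and Mir136 (chr12:109595327-109595388). The exact complement of each arm was found in the Rtl1 transcript, for 10 of 10 arms. Opposite the 2 most abundant arms, the Rtl1 mRNA reads, with the bases that face the seed in capitals:
Rtl1 opposite miR-127-3p: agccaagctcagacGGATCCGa
Rtl1 opposite miR-434-3p: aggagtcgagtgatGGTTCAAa
Rtl1 mRNA was not measured in these small RNA libraries. Mir3071 is annotated on the minus strand over Mir136, and the sources used here do not say whether the counting used strand.

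The values are normalised read counts as deposited. They summed to between 17312269 and 17312436 in every library and were the same in all libraries at 342 ranks, so a value stands for a miRNA's rank within its library and the sequencing depth is unknown. In each library between 162 and 239 miRNAs were listed at 0, and no member was. Markers of the labelled tissue were present: the photoreceptor miRNA miR-182-5p had the highest value in all 10 libraries, and the neuronal miR-124-3p lay between 76000 and 88655. The liver miRNA miR-122-5p was at 1.3 or below. Of the other tissues, the summed level of 4 skeletal muscle miRNAs was 1742 in the left retina of mouse 68 against 279 to 400 elsewhere. That of 3 lens and cornea miRNAs was 22622 in the right retina of mouse 65 against 1217 to 2338 elsewhere. This came from miR-184-3p alone, at 22384 in that library. There miR-205-5p, at 25.6, and miR-203-3p, at 213, lay within the range of the other libraries.

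mmu-miR-127-3p led the group, at rank 8 or 9 of the 1061 miRNAs, with a mean of 141170 normalised reads. The members together made up 1.04% ± 0.0480 (SD over 10 libraries) of the normalised total, and miR-127-3p alone took 75.6% to 81.6% of the members' sum. The imprinted cluster was taken by position, as a window of chromosome 12 around the members. The other 87 miRNAs listed in this window took 0.200% ± 0.00852 of the total. Those of them that were tested started between chr12:109563710 (miR-770-5p) and chr12:109743764 (miR-410-3p). Levels of different miRNAs are not on one molar scale, since adapter ligation in library preparation favours some sequences, but all members have nearly the same length, 21 or 22 bases. The levels of the members spanned a 2283-fold range.

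**Figure D1:**
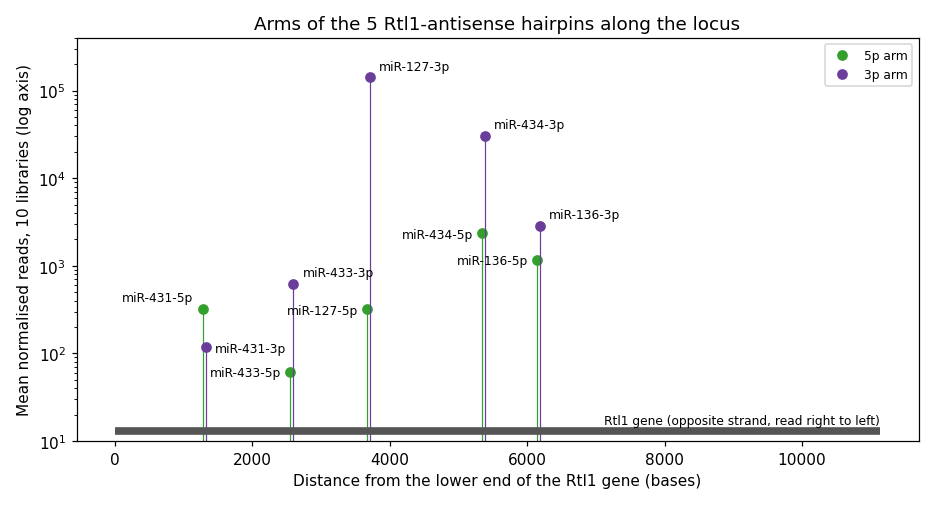
Mean normalised reads over 10 libraries (vertical log axis) of the 5p arms (green) and 3p arms (purple), placed by distance in bases from the lower end of the Rtl1 gene (grey bar). miR-127-3p stands at 141170 and miR-434-3p at 30376, and the other 8 arms lie between 61.8 and 2876.

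miR-127-3p is the arm best known for targeting Rtl1, and mice without the hairpin have placental defects. Only 2 values occurred for it: 150447, rank 8, in the left retinas of mice 65 and 68 and the right retinas of mice 61, 64 and 68, and 131892, rank 9, in the remaining 5 libraries. miR-30a-5p held the other rank of this pair in 10 of 10 libraries, so the member's values show a change of place with that miRNA and nothing finer. The opposite arm, miR-127-5p, was at 207 in left and 207 in right retina of mouse 61, 382 and 373 in mouse 64, and 428 and 382 in mouse 65. In mouse 66 it was at 395 and 345, and in mouse 68 at 273 and 192. Both retinas of mice 61 and 68 thus lay below every retina of the other 3 mice. This split is not particular to miR-127-5p. Mice 61 and 68 also had the lowest or highest means in the 8 miRNAs of the table that passed a test between mice. The share of such splits among all tested miRNAs is not given here.

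mmu-miR-434-3p followed at 30376 ± 3051 (SD over 10 libraries), between 26690 and 34261, at ranks 22 to 26. mmu-miR-434-5p was the steadiest member, at 2350 ± 89.2, from 2262 to 2508. It held ranks 81 to 84 in every library. Of the 40 miRNAs nearest to it in mean level, 20 above and 20 below, none stayed within so few ranks, and their median span was 14 ranks. miR-434-5p was singled out for this after its values were seen.

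mmu-miR-136-3p was at 2876 ± 642 and mmu-miR-136-5p at 1169 ± 204.7 (SD over 10 libraries). In left and right retina miR-136-3p was at 4496 and 2508 in mouse 61, 2948 and 2185 in mouse 64, 2409 and 3023 in mouse 65, 2699 and 2578 in mouse 66, and 3169 and 2748 in mouse 68. miR-136-5p was at 1535 and 966 in mouse 61, 1303 and 988 in mouse 64, 914 and 1395 in mouse 65, 1115 and 1098 in mouse 66, and 1303 and 1074 in mouse 68. The left retina of mouse 61 was the highest library for both arms, and in both arms mouse 65 was the one with the higher value on the right. These libraries also stood apart in how their values depended on GC content, and both miR-136 arms have the lowest GC content of the members. The slope of log2 values on GC, fitted in each library over the tested miRNAs outside the group, was -0.15 per 10 percentage points in the left retina of mouse 61, the most negative of all. From left to right it changed by 0.19 in mouse 61, 0.12 in mouse 64, 0.06 in mouse 66 and 0.04 in mouse 68, and by -0.17 in mouse 65. Its change was opposite in sign to that of both miR-136 arms in 5 of 5 mice. A change of this slope by itself means that miRNAs of low GC content move the other way on average. How many others did so in every mouse is not given here. In mouse 66 the arms differed by only -0.02 for miR-136-5p and -0.07 for miR-136-3p on the log2 scale. The arms have the same GC content, so they are not separate matches. Whether the GC trend caused the miR-136 differences was not tested.

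The arms of the first 2 hairpins along the chromosome were lower. miR-433-3p was at 626 ± 123, from 457 in the left retina of mouse 61 to 821 in the left retina of mouse 65, and miR-433-5p, the lowest member, at 61.8 ± 15.0, from 41.2 to 89.8. miR-431-5p was at 321 ± 39.2 (all SD over 10 libraries), from 266 to 401. In sensory neurons miR-431 is known to favour axon growth through the Wnt antagonist Kremen1. miR-431-3p was at 72.3 and 88.4 in left and right retina of mouse 61, 111 and 149 in mouse 64, 173 and 124.2 in mouse 65, 167 and 120 in mouse 66, and 82.7 and 94.9 in mouse 68. As for miR-127-5p, the 4 libraries of mice 61 and 68 were the lowest. Other members did not all go this way. By means over the eyes, these mice were also lowest for miR-434-5p but highest for both miR-136 arms. The remaining members showed neither order.

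In the order of levels most neighbours were apart in every library. The ranges overlapped for 3 neighbouring pairs. miR-136-3p was above miR-434-5p in 8 of 10 libraries, miR-431-5p above miR-127-5p in 4 of 10, and miR-431-3p above miR-433-5p in 9 of 10. Over the libraries, the SD of the log2(value + 1) scale ran from 0.05 for miR-434-5p to 0.45 for miR-127-5p. Among the 484 miRNAs with a mean of at least 10, which were the ones tested, the median SD was 0.28.

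**Figure D2:**
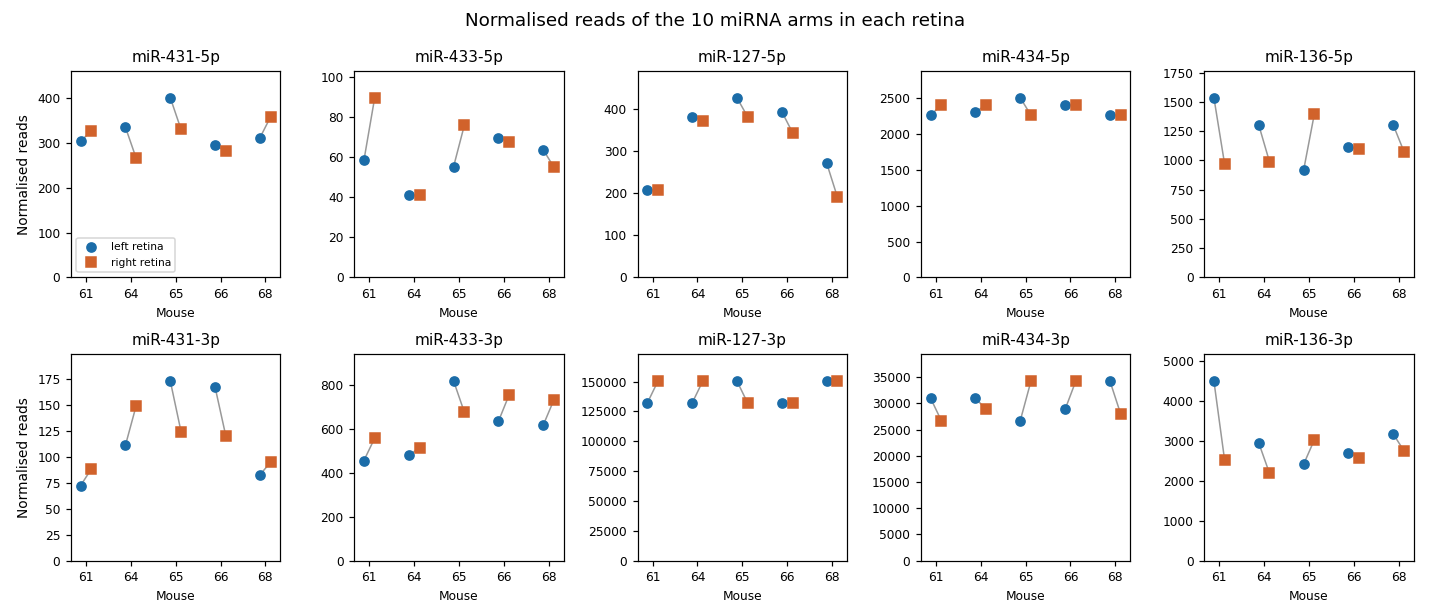
Normalised reads (vertical axes from 0, one scale per panel) of the 10 arms in the left (blue circles) and right (orange squares) retina of each mouse, with a line joining the eyes of a mouse. The panels of miR-127-5p and miR-431-3p show both retinas of mice 61 and 68 at the bottom, and miR-127-3p switches between 131892 and 150447.

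The 3p arm was the higher one in 4 of the 5 hairpins, by 443-fold in miR-127, 12.9-fold in miR-434, 10.1-fold in miR-433 and 2.46-fold in miR-136, as ratios of mean levels. In miR-431 the 5p arm was higher, by 2.72-fold. Over the libraries the 3p arm took 99.7% to 99.9% of the reads of both arms in miR-127, 91.4% to 93.8% in miR-434, 86.2% to 93.7% in miR-433, 68.4% to 74.6% in miR-136 and 19.2% to 36.1% in miR-431. So the higher arm of each hairpin was the same in all 10 libraries. Among the 126 hairpins of the table with both arms tested, the 3p arm was higher in 57 (45.2%), the median ratio of the arms was 9.44-fold, and miR-127 had the 5th largest ratio. In 3 of the 5 hairpins (miR-127, miR-434 and miR-431) the higher arm starts with U and the lower one does not. In miR-433 the lower arm starts with U, and both miR-136 arms start with A. First bases were compared in these 5 hairpins only, so the 3 of 5 cannot be set against a share over all hairpins. Ligation preferences differ between the arms of a hairpin, and their part in these ratios was not tested.

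The arms of miR-136 moved together from library to library, and those of miR-434 did not. For miR-136 the log2 ratio of 5p to 3p had an SD of 0.13 over the libraries, less than the 0.25 of miR-136-5p and the 0.29 of miR-136-3p on their own, and both arms differed between the eyes in the same direction in 5 of 5 mice. A ratio steadier than either arm was seen in 8 of the 126 hairpins (6.35%), and arms with the same direction in all 5 mice in 6 (4.76%), miR-136 included in both counts. A correction added after the values were seen removed the GC trend from each library. The SDs were then 0.16 for miR-136-5p and 0.20 for miR-136-3p, and the arms shared a direction in 5 of 5 mice. In mouse 66, however, both arms turned sign, to 0.05 for miR-136-5p and 0.01 for miR-136-3p. The ratio of these arms cannot change with this correction, since their GC content is equal. In miR-434 the arms went in opposite directions in 3 mice and miR-434-5p was equal in both eyes in the other two. The SDs of the log2 ratios were 0.46 in miR-431, 0.38 in miR-433, 0.48 in miR-127 and 0.18 in miR-434, against a median of 0.36 over the 126 hairpins.

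**Figure D3:**
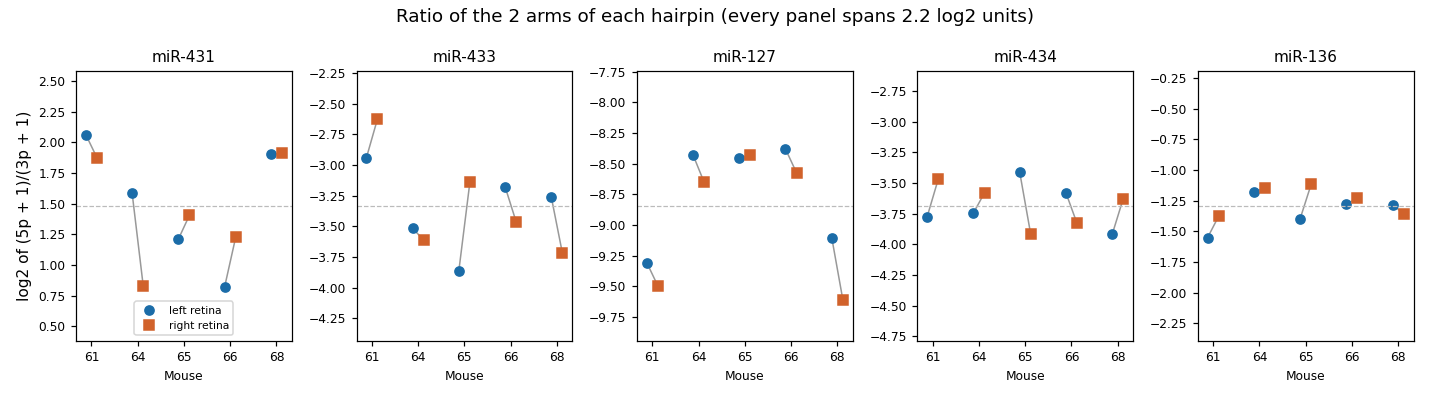
log2 of (5p + 1)/(3p + 1) normalised reads (vertical axes, each spanning the same number of log2 units) for the left (blue circles) and right (orange squares) retina of each mouse, with the mean over libraries as a dashed line. Values above 0, where the 5p arm is higher, occur for miR-431, and miR-127 is lowest in mice 61 and 68.

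No member passed the test between right and left retina. Of the 484 miRNAs tested with limma, with mouse as a block and Benjamini-Hochberg adjustment, 0% passed an adjusted p of 0.05, and so did 0 of the 10 members. At an unadjusted p under 0.05 there were 0 members, against 2.48% of the tested miRNAs. The largest difference was that of miR-136-3p, whose mean was 3144 ± 807 for left retinas and 2608 ± 309 for right ones (SD, n = 5). It was -0.24 on the log2 scale, right minus left (95% interval -0.63 to 0.15; adjusted p by limma 0.958), with a lower right value in 4 of 5 mice. For miR-136-5p the difference was -0.15 (95% interval -0.59 to 0.29). Both values turned on single mice: without mouse 65 they were -0.39 for miR-136-3p and -0.34 for miR-136-5p (adjusted p by limma 0.341 and 0.337), and without mouse 61 they were -0.09 and -0.02. With the GC trend removed they were -0.18 and -0.09. For miR-127-5p the left mean was 337 ± 92.9 and the right mean 299.8 ± 92.7 (SD, n = 5), with a difference of -0.18 (95% interval -0.42 to 0.06; adjusted p by limma 0.958), a lower right value in 4 mice and equal values in mouse 61. Without mouse 68, whose left library held the high muscle miRNAs, it was -0.10. Both libraries of that mouse are dropped in this fit, and the part of muscle was not tested.

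The differences of the other members were 0.16 for miR-433-5p, 0.12 for miR-433-3p, 0.04 for miR-127-3p, -0.08 for miR-431-5p, -0.01 for miR-431-3p and 0.00 for both miR-434 arms. They also turned on single mice: with each mouse left out in turn, the difference ran from 0.05 (without mouse 61) to 0.26 (without mouse 68) for miR-433-5p, and reached 0.22 without mouse 65 for miR-433-3p. For miR-431-5p it ran from -0.15 (without mouse 68) to -0.01 (without mouse 64), and for miR-127-3p it reached 0.09 without mouse 65. The median over the members was 0.00 and that over all tested miRNAs -0.01. Left and right libraries overlapped for every member, where 0.826% of the tested miRNAs had none, and no member had one direction in all 5 mice, against 3.72% of those tested. For 8 of 10 members the 95% interval kept within 1.5-fold in both directions. The widest interval, of miR-136-3p, reached 1.55-fold. The directions of miR-431-3p and miR-434-3p turned with median-ratio scaling, to differences of 0.01 each, and those of miR-127-3p and both miR-434 arms turned with the GC correction, to -0.0079 for miR-127-3p, -0.0024 for miR-434-5p and 0.018 for miR-434-3p.

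**Figure D4:**
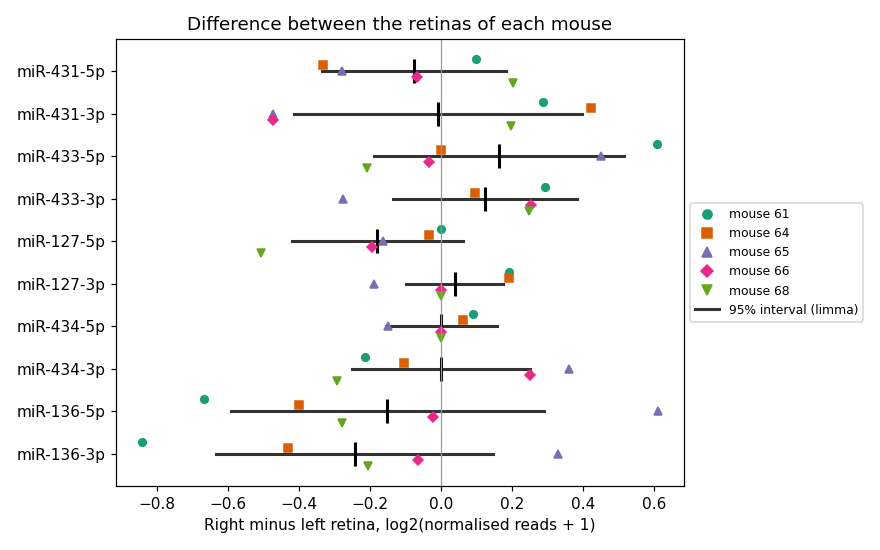
Right minus left difference on the log2(normalised reads + 1) scale (horizontal axis) for each arm, with 1 symbol per mouse, the fitted mean as a vertical tick and its 95% interval from limma as a bar. All 10 intervals include 0, and the symbols of mouse 65 lie opposite to most others for both miR-136 arms.

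Within single mice the values of the eyes lay further apart. In mouse 61 the right retina had lower values of both miR-136 arms, by 0.84 for the 3p and 0.67 for the 5p arm on the log2 scale, and a higher value of miR-433-5p, by 0.61. In mouse 65 the right retina had a higher miR-136-5p, by 0.61. With the GC trend removed, the miR-136-5p difference was -0.43 in mouse 61 and 0.39 in mouse 65, and that of miR-136-3p was -0.60 in mouse 61. Each of these rests on 1 library per eye and has no replicate. Mouse 65 is the animal whose right library held the high miR-184-3p, and its part in this difference was not tested. No arm ratio passed either: with limma, 0% of the 126 hairpins and 0 of the 5 hairpins here were past an adjusted p of 0.05 for right against left, with 2.38% of all hairpins and 0 of these 5 at an unadjusted p under 0.05. For miR-127 the difference of the log2 ratio was -0.22 (95% interval -0.48 to 0.04).

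Between mice, miR-127-5p varied most. Its mean over the eyes was 207 in mouse 61, 232 in mouse 68, 370 in mouse 66, 378 in mouse 64 and 405 in mouse 65, a 1.95-fold range, whereas the eyes of a mouse differed by 1.12-fold in the median and 1.42-fold at most. In the limma F test over mice its adjusted p was 0.0645, just above the threshold. It was 0.0383 when only miRNAs with a mean of at least 100 were tested. With the GC trend removed it was 0.0347, in a fit of only the 424 tested miRNAs with a RefSeq sequence. Both of these values were adjusted over fewer miRNAs. With each mouse left out it was 0.0976 to 0.206. At the threshold, 0 of 10 members and 1.65% of the tested miRNAs passed. At an unadjusted p under 0.05 there were 3 of 10 members (miR-127-5p, miR-433-3p and miR-431-3p), against 14.0% of the tested miRNAs.

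For miR-431-3p the means by mouse were 80.3 in mouse 61, 88.8 in mouse 68, 130 in mouse 64, 143 in mouse 66 and 149 in mouse 65, a 1.85-fold range (adjusted p by the limma F test 0.344). miR-433-3p was lowest in mouse 64, with 498, and in mouse 61, with 509, and highest in mouse 65, with 749 (adjusted p by the limma F test 0.289). The range of the mouse means was 1.07-fold for miR-434-5p and 1.09-fold for miR-434-3p. For miR-127-3p it was 1.14-fold, the ratio of the only 2 values that occurred for it. For both miR-136 arms the range between mice, 1.36-fold for the 3p and 1.13-fold for the 5p arm, was below their largest difference between the eyes of a mouse, 1.79-fold and 1.59-fold.

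The ratio of the miR-127 arms passed a test between mice, but not under every setting. In a test added after the values were seen, the log2 ratio of 5p to 3p was -9.40 in mouse 61 and -9.36 in mouse 68, against -8.54, -8.44 and -8.48 in mice 64, 65 and 66. The limma F test over mice gave an adjusted p of 0.0399, with 6.35% of the 126 hairpins passing, 1 of the 5 here among them. In that limma F test the unadjusted p was 0.00158 for the ratio and 0.00167 for miR-127-5p alone. The adjustment was over 126 hairpins for the ratio and over 484 miRNAs for the arm. With only 2 values of miR-127-3p, the ratio largely repeats the test of miR-127-5p and is no separate support. At an unadjusted p under 0.05 there was 1 of the 5, against 17.5% of the 126. The call was lost without any 1 of the mice, with adjusted p values from 0.0664 to 0.112. It was also lost without the mean-variance trend (0.0518) and without the filter on low values (0.328). Over the libraries the log2 values of miR-127-5p had an SD of 0.45 and those of miR-127-3p one of 0.10. The ratio of the deposited values thus varied mainly with the 5p arm. Only 2 values occurred for miR-127-3p, set by its change of place with miR-30a-5p, so finer variation of that arm could not be seen.

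Some other values also put mice 61 and 68 together, though the full order of the mice differed. The 8 miRNAs that passed the F test were picked for differing between mice. In them mice 61 and 68 lay at one end of the order, with the lowest means in 6 and the highest in 2. Mouse and any handling that both eyes of a mouse shared cannot be told apart. Of the pigment epithelium markers, miR-211-5p was at 14434 and 15330 in mouse 61 and 20983 and 17043 in mouse 68, and at 6309 to 12948 in the libraries of the other mice, while miR-204-5p was identical everywhere, and the part of such cells in the result was not tested. The summed level of this pair was 217934 to 224482 in the 4 libraries of mice 61 and 68 and 209809 to 216448 in the other 6. Since miR-204-5p stood at 203500, an unchanged rank, in every library, this sum only restates miR-211-5p. The number of miRNAs listed at 0 was 162 and 196 in mouse 61, 167 and 195 in mouse 68, and 175 to 239 in the others, and its part was not tested. The left library of mouse 68, with the high muscle miRNAs, had the higher miR-127-5p value of that mouse, and the part of muscle in it was not tested.

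The rest of the imprinted cluster gave no call between the eyes either. Of its 87 other listed miRNAs, 53 were tested, and 0 passed between right and left with limma (1 at an unadjusted p under 0.05), with 22 above and 31 below 0 and a median difference of -0.05. The most abundant were miR-541-5p, at 8391, and miR-410-3p, at 5640 normalised reads, and miR-127-3p was 16.8-fold above the former. Between mice 1 of the 53 (1.89%) passed. It was miR-329-5p (chr12:109713503-109713524; adjusted p by the limma F test 0.0298), with means of 56.8 in mouse 61 and 48.6 in mouse 68 and of 142, 179 and 169 in mice 64, 65 and 66.

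The members did not share one pattern over the libraries, as the plot of values by mouse shows. Their mean standardised profile was nevertheless used to find the miRNAs most like them, by Pearson's r over the 10 libraries, which come from 5 mice and share a normalisation, so r is a description here. The 5 nearest were miR-425-5p (r = 0.90), miR-132-3p (0.88), miR-124-5p (0.87), miR-323-3p (0.87) and miR-345-5p (0.84). miR-132-3p is induced by neuronal activity, miR-124-5p is the minor arm of a neuronal miRNA, and miR-323-3p belongs to the same imprinted cluster. The nearest, miR-425-5p, lies on chromosome 9, and miR-345-5p lies on chromosome 12 but outside the cluster. Of the 20 nearest, 7 were cluster miRNAs, which make up 11.3% of the 469 miRNAs compared. Over all 53 cluster miRNAs, however, the median r was 0.10, and over the other miRNAs it was -0.02. With Spearman's rho in place of r there were 5 of 20, and without miR-127-3p in the profile 6 of 20, and 3 of the 5 nearest were kept in each case.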

How the data were processed

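Small RNA of 10 retinas was sequenced from TruSeq Small RNA libraries made from 50 ng, per the labels' protocols. The submitters' processing notes name Bowtie and Partek, and as builds GRCm38 or mm10. The sources used here do not name the miRNA annotation. The deposited signal of each miRNA is a normalised read count. Its nearly equal totals and shared sorted values are what quantile normalisation would give, a step that no label records, and no depth or counting error could be had. The table held 0 columns of other samples. Its end coordinates were reduced by 1 base, after which those of the members matched RefSeq.

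The members and lists were chosen with earlier results of these data known. The number in a title was taken as the mouse, since the labels compare the eyes of an animal, and mouse was a term of the model. Deviations of the eyes of a mouse correlated across miRNAs by 0.0893 to 0.382, and those of different mice by -0.338 to 0.355. Values with a mean of at least 10 (484 of 1061) entered as log2(value + 1), a scale that shrinks differences of low miRNAs. The fit used limma 3.58.1 under R 4.3.3, with a mean-variance trend, two-sided and with Benjamini-Hochberg adjustment. Differences between mice were tested by the moderated F test of that fit, and arm ratios as log2((5p + 1)/(3p + 1)) over 126 hairpins. The fits were tested on simulated data with independent normal noise. Those data lacked the shared sorted values of the deposited ones, so they cannot show how the fits behave on such values. A GC correction, added after values were seen, removed each library's linear trend on GC content for the 424 tested miRNAs (87.6%) with a RefSeq sequence. Other alternatives covered pseudocount, filter, scaling, ranks, trend, block and each mouse left out. Named beside the members were the 2 most abundant other cluster miRNAs, the 5 most alike, rank neighbours and markers. miR-329-5p, miR-434-5p's rank span and the test of arm ratios between mice were chosen after values were seen.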

Additional observations from a re-analysis of the deposited data

How the results depend on the processing

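The depth is unknown, and abundant members can only trade ranks, so small changes of miR-127-3p would not be seen. Under other pseudocounts, filters and scalings and without the trend, 0 members and 0 of all miRNAs or hairpins passed between right and left, and leaving out each mouse gave 0 to 0. Without the replicate block these counts were 0 as well, and the block changed no call. Ranks were not run for arm ratios, and the F test over mice has no fit without the block. Between mice, the members that passed went from 0 to 1 with a mean of at least 100 and to 1 with the added GC correction. Both of these fits held fewer miRNAs. All miRNAs that passed between mice went from 8 to 5 with ranks as normal scores and to 5 without the trend, to 13 with the GC correction, and were 3 to 7 without a mouse. In the added test of arm ratios between mice, 1 of the 5 hairpins passed, 0 without the filter, 0 without the trend and 0 to 0 without a mouse. Over all hairpins 8 passed, 0 without the filter, 2 with a mean of at least 100 and 0 to 4 without a mouse. Log2 differences between right and left that lay near 0 turned sign: with median-ratio scaling to 0.0064 for miR-431-3p and 0.015 for miR-434-3p, and to -1.2e-05 for miR-434-5p in normal scores. The GC correction turned miR-127-3p to -0.0079, miR-434-5p to -0.0024, miR-434-3p to 0.018 and the miR-434 arm ratio to -0.020, and ended no call. Without a mouse they ran from -0.12 to 0.11 for miR-431-3p, -0.022 to 0.038 for miR-434-5p and -0.091 to 0.073 for miR-434-3p. The log2 arm ratios ran from -0.19 to 0.11 for miR-431, -0.13 to 0.16 for miR-433 and -0.075 to 0.13 for miR-434. Where no fewer miRNAs or mice entered the fit, the cause was not tested.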
